A study of Schmidtea mediterranea with 32 samples.

Results

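The comparison described here sets RNAi against nhr-1 beside control RNAi after 11 feedings in the planarian flatworm Schmidtea mediterranea. It holds 8 of the 32 libraries of the series, 4 per group, chosen by their titles. All 8 were made from poly(A) RNA of whole animals of the sexual biotype (Sexual S2F2). The knock-down libraries are named 1, s2, s3 and s4, and the control libraries, labelled UNC RNAi, are named 1, s1, s2 and s3. The other libraries sampled the same kinds of animals after fewer feedings, and those at 8 feedings, 4 per group, are used below because they share no library with the comparison at 11. The labels do not say whether the libraries of a group came from separate animals or cultures, or how many animals each holds, so p-values measure the spread between these libraries.

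Nuclear hormone receptors are transcription factors whose activity is commonly set by small lipophilic ligands. Sexual planarians are hermaphrodites that carry testes, ovaries, yolk glands and accessory reproductive organs, whereas the asexual biotype of the species reproduces by fission and lacks mature reproductive organs. The receptor nhr-1 is known in this species for its part in the upkeep of the reproductive system. The comparison asks which transcripts were higher or lower in knock-down animals after the longest course of feeding. In whole-animal RNA, a loss of cells of a type and a fall in RNA per cell cannot be told apart.

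The table lists 177783 reference sequences. The 93783 with the prefix SmedSXL are described here and are taken from that prefix to be contigs of a sexual transcript assembly. Gene names are not paired with the identifiers and sequences were not used here, so nhr-1 itself was not analysed and contigs are given by identifier, with no role. Contigs are not genes, and several can belong to 1 transcript. The 8 libraries held 12867819 to 17895625 counts, of which 5685311 to 8431351 fell on SmedSXL contigs. In all, 85328 of these contigs received at least 1 count, and 19288 passed the filter on low counts, which held 98.6% of the SmedSXL counts.

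The control libraries s2 and s3 stood apart from the other 6. The contig SmedSXL_088910, of 1006 bases, took 45.6% and 47.5% of their SmedSXL counts, against 7.78% in control 1 and 16.3% in control s1. In the knock-down it took 11.1% in replicate 1, 19.4% in s2, 13.2% in s3 and 13.7% in s4. The groups overlapped, and their means of 14.3% ± 3.57 (SD, n = 4) and 29.3% ± 20.2 (SD, n = 4) did not pass a two-sided exact permutation test (p = 0.343, where the smallest this design allows is 0.0286). Without control s2 and s3 the control mean was 12.04% and the knock-down mean lay 2.31 percentage points above it, given with no test because these 2 libraries were left out for this very share. The fitted log2 fold change of SmedSXL_088910 was -2.28 with all 8 libraries (standard error 0.904, adjusted p = 0.132 by edgeR). Without control s2 and s3 it was 0.26, given with no test for the same reason.

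Beyond that contig, control s2 and s3 also held fewer detected contigs, 28426 and 29567, where the other 6 libraries held 52814 to 62730. Over the contigs tested, the log2 values of s2 and s3 correlated with each other at r = 0.955 and with control 1 at r = 0.742 and 0.675, as a description across contigs, which are not independent. The 4 knock-down libraries correlated with each other at r = 0.972 to 0.988. Both s2 and s3 lay at least 4-fold above all other 6 libraries for 1061 contigs (5.50% of those tested) and at least 4-fold below them for 106 (0.55%). The 1061 contigs had median values of 23.3 and 27.6 CPM (counts scaled to a common library size after TMM correction) in s2 and s3, against 2.45 and 3.34 CPM in control 1 and s1 and 1.79 to 2.39 CPM in the knock-down. The TMM factors were 0.441 in control s2 and 0.417 in control s3, against 1.14 to 1.51 in the other 6 libraries. A smaller factor raises the CPM, so values of control s2 and s3 relative to the rest depend on this scaling. The main results below are therefore given with and without control s2 and s3, and where only 1 value stands it is that of all 8 libraries. The part that their composition plays in any single contig was not tested.

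**Figure D1:**
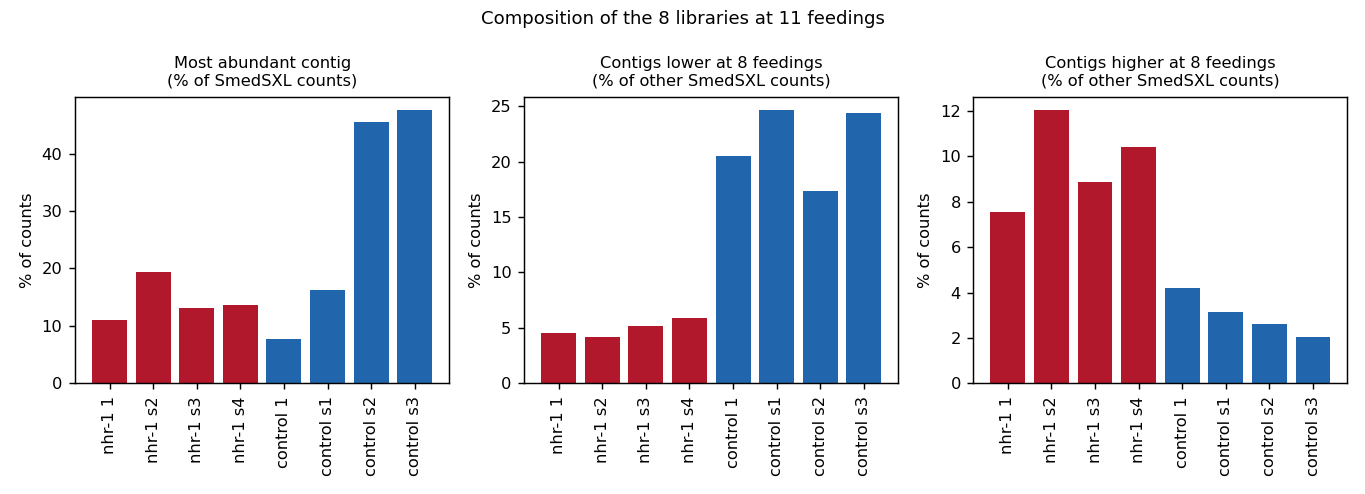
Share of counts in each of the 8 libraries at 11 feedings (bars, nhr-1 RNAi in red, control in blue, y axes in percent). The left panel shows SmedSXL_088910 as a share of SmedSXL counts, highest in control s2 and s3 at 45.6% and 47.5%, and the other panels show the contigs called lower or higher at 8 feedings as a share of the remaining SmedSXL counts, where the groups do not overlap.

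After 11 feedings, contigs that fell far outnumbered contigs that rose. Of the 19288 contigs tested, 2681 (13.9%) were lower and 71 (0.368%) were higher under nhr-1 RNAi in the quasi-likelihood test of edgeR, with p adjusted by Benjamini-Hochberg over all 37168 sequences tested and a limit of 0.05. Among the lower contigs, 2662 were at least 2-fold lower, 1012 (5.25% of those tested) at least 8-fold and 288 at least 32-fold, with a median log2 fold change of -2.65. That median was the same when the 13 contigs with 0 counts in all 4 knock-down libraries were set to the bound that 3 counts over the group allow. The median over all contigs tested was 0.01. The values of the groups did not overlap for 2588 of the 2681 lower contigs and for all 71 higher ones. Over all contigs tested, the knock-down lay wholly below the controls for 16.5% and wholly above them for 7.69%.

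Without control s2 and s3, lower contigs again outnumbered higher ones. That fit called 3176 contigs lower (14.8% of 21452 tested) and 230 higher (1.07%), and it shared 2434 of the 2681 lower and 67 of the 71 higher contigs. No contig was called in opposite directions. The lower contigs of the 8 libraries had a median log2 fold change of -2.29 in it, but only 608 contigs were both called and at least 8-fold lower. A fit of the 31 libraries at 4, 6, 8 and 11 feedings, without the control at 7 feedings, shares 1 estimate of the spread. It called 5894 lower (24.7% of 23870) and 1595 higher (6.68%). Without control 1 the fit of the remaining 7 libraries called 5521 lower and 2693 higher, so that 32.8% of its calls were higher, against 2.58% with all 8 libraries.

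**Figure D2:**
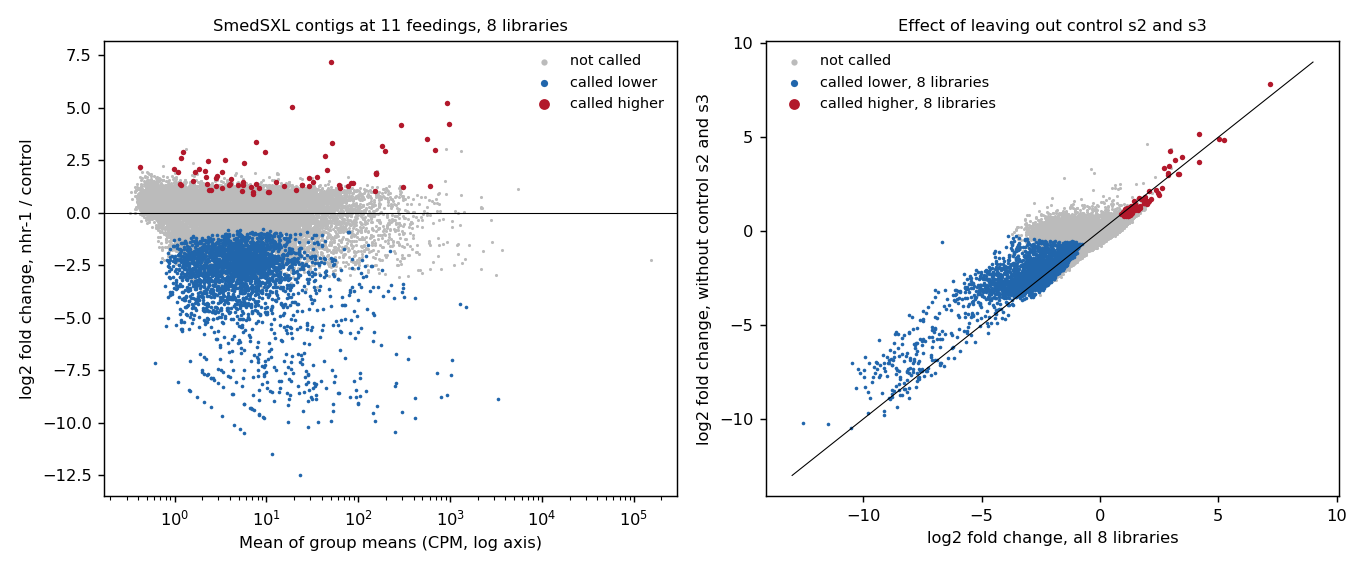
Log2 fold change of the SmedSXL contigs tested at 11 feedings, against the mean of the group means (left, CPM on a log axis) and with all 8 libraries against a fit without control s2 and s3 (right, log2 units, line of equality). Each point is a contig, blue if among the 2681 called lower, red if among the 71 called higher and grey otherwise. Many lower contigs lie above the line on the right, closer to 0 without those 2 controls.

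The depth of the loss varied widely among the lower contigs. Of the 2681, 1054 lay between -2 and -3 on the log2 scale, 492 between -3 and -4, 232 between -4 and -5 and 93 between -5 and -6. Beyond that there were 46 between -6 and -7, 56 between -7 and -8, 59 between -8 and -9 and 27 between -9 and -10, so that the count no longer fell with depth beyond -6 until -9. The comparison at 8 feedings, made in 8 other libraries, had a similar tail. Of its lower contigs tested at 11, 352 lay between -3 and -4, 47 between -4 and -5, 44 between -5 and -6, 56 between -6 and -7 and 35 between -7 and -8. The deepest values rest on few knock-down counts. At 11 feedings 62 of the lower contigs had at most 3 counts over the 4 knock-down libraries. The part of this floor in the shape of the tail was not tested. The contigs at least 32-fold lower had a median of -7.09, or -5.71 without control s2 and s3, and the depths above are for all 8 libraries only.

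The contigs at least 32-fold lower at 8 feedings were followed at 11, since the libraries at 11 entered their choice only through the filter on low counts. There were 139 of them among the contigs tested at 11 (0.721%). All 139 were lower at 11 feedings, with and without control s2 and s3, and for none did the groups overlap. A contig near 0 counts in the knock-down passed the filter only if every control fitted held it. Direction and lack of overlap were thus largely fixed in advance and are given as a description. Contigs of the list at 8 feedings that failed the filter at 11 were not counted. The shares over all contigs tested, given next, come after the same filter. They are limited in the same way for any contig near 0 counts in the knock-down. Over all contigs tested 13.9% were lower, 14.8% without control s2 and s3, and 16.5% lay wholly below the controls. Of the 139, 138 were again at least 32-fold lower. The median log2 value of the difference was -6.39 at 8 feedings and -8.16 at 11 (-8.09 with the 7 contigs at 0 counts set to their bound), and -7.22 at 11 without control s2 and s3. In the controls they took 2.62% of the SmedSXL counts other than SmedSXL_088910 in replicate 1, 9.64% in s1, 5.34% in s2 and 6.92% in s3. In the knock-down the same contigs took 0.0219% in replicate 1, 0.0314% in s2, 0.0233% in s3 and 0.0360% in s4. Every control library thus lay above every knock-down library, and the controls themselves differed, with replicate 1 the lowest. The 138 contigs on both lists are 99.3% of the list at 8 feedings and 47.9% of the list at least 32-fold lower at 11.

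Length and level are given as a description, since the lists were set by the fold change itself. The 288 contigs at least 32-fold lower had a median length of 480 bases and a median control level of 20.9 CPM. The 2393 other lower contigs had medians of 1023 bases and 8.31 CPM. Over all contigs tested the medians were 1289 bases and 5.49 CPM in the controls, and over the 71 higher contigs 1349 bases and 4.25 CPM in the controls against 13.7 CPM in the knock-down. CPM is not per length, so these levels are for the lists as counted and do not rank transcripts.

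Lower contigs were found at every level. In the lowest quintile of contigs by mean CPM over the 8 libraries, 4.64% were lower. The share was 18.2%, 21.2% and 15.6% in the next 3 quintiles and 9.90% in the highest. Higher contigs made up 0.181% to 0.363% of the 4 lower quintiles and 0.804% of the highest. Without control s2 and s3 the lower contigs made up 5.003%, 19.0%, 23.4%, 17.8% and 10.52% from the lowest to the highest of the same quintiles. The higher contigs made up 0.467% to 1.04% of the 4 lower quintiles and 2.72% of the highest in that fit. Of the 100 most abundant contigs 11 were lower and 5 higher, and without control s2 and s3 again 11 were lower and 10 higher. The share lower among these 100 was thus near the 13.9% of all contigs tested. Their share higher was above the 0.368% of all contigs tested, and above the 1.07% without control s2 and s3.

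The lower contigs had a smaller share of counterparts on the asexual assembly than the contigs tested. The table also lists 83469 contigs with the prefix SmedASXL, and many SmedSXL contigs had a SmedASXL contig with nearly the same counts in every library. A SmedSXL contig was taken as matched where the counts of a SmedASXL contig differed from its own by at most 5% of its total, summed over all 32 libraries. By this rule 11364 of the 19288 contigs tested (58.9%) had a match, but only 526 of the 2681 lower contigs (19.6%) did. Among the 2434 contigs lower both with and without control s2 and s3 the share was 17.0%. Of the 71 higher contigs 45 (63.4%) and of the contigs not called 10793 (65.3%) had one. Put the other way, 27.2% of the contigs without a match were lower, against 4.63% of those with a match. Among contigs at least 32-fold lower the share matched was 14.2%.

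The share of contigs with a match also went with abundance, so it is given by quintile. In the lowest quintile 25.3% of the contigs tested and 8.94% of the lower contigs were matched. The shares were 50.3% and 10.7% in the next, 63.5% and 17.8% in the middle, 74.8% and 28.8% above it and 80.8% and 30.4% in the highest. In each quintile the share of the lower contigs was below that of the contigs tested, with no test made. As a background for the rule, 1.23% of the contigs tested had another SmedSXL contig with counts as close. The rule reads counts, not sequence. A contig without a match may still have a homologous asexual contig that is shorter, longer or split.

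**Figure D3:**
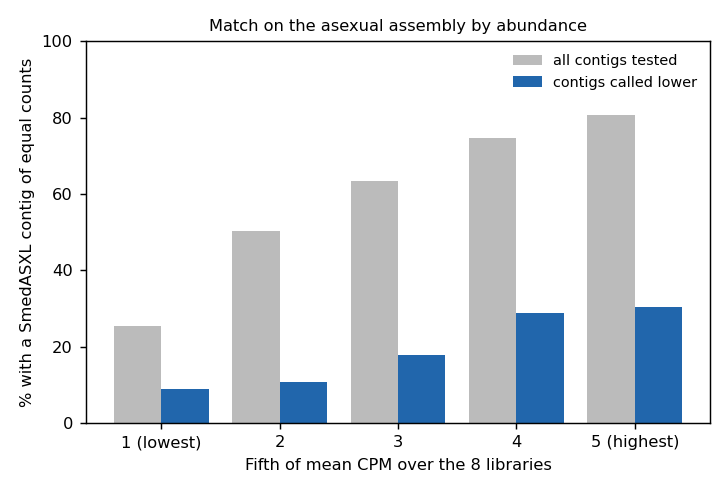
Percent of SmedSXL contigs whose counts were met within 5% by a SmedASXL contig (y axis), by quintile of mean CPM over the 8 libraries (x axis), for all contigs tested (grey) and those called lower at 11 feedings (blue). The blue bars stay below the grey bars in each quintile, from 8.94% against 25.3% in the lowest to 30.4% against 80.8% in the highest.

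Of the contigs lower at 11 feedings, 2 are named by a rule on size, level and lack of overlap in both fits, which 253 contigs met. SmedSXL_078329 (357 bases) had 0 counts in each of the 4 knock-down libraries. Its control values were 5.04 CPM in replicate 1, 10.8 in s1, 62.6 in s2 and 104.9 in s3, from 111 to 688 counts. It was highest in the pair that stood apart. Its presence in every control was a condition of the filter on low counts and of the rule for naming. With counts pooled over each group and 3 counts as the limit for the knock-down group, it was at least 655-fold lower, or at least 193-fold lower without control s2 and s3 (edgeR adjusted p = 0.00641 and 0.000609). The fitted log2 fold change of SmedSXL_078329 was -2.68 at 4 feedings, where it was not called (edgeR adjusted p = 1.0), -4.24 at 6 and -6.44 at 8 (edgeR adjusted p = 0.00465 and 1.13e-05).

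SmedSXL_001355 (1047 bases) had 2, 5, 1 and 1 counts in knock-down replicates 1, s2, s3 and s4, or 0.112, 0.315, 0.0552 and 0.0415 CPM. Its control values were 22.9 CPM in replicate 1, 101.5 in s1, 56.7 in s2 and 67.2 in s3. Here the highest control was s1, and the group means were 0.131 ± 0.126 and 62.1 ± 32.4 CPM (SD, n = 4 each). This is a log2 fold change of -8.89 with a standard error of 0.753 (adjusted p = 0.00044 by edgeR), and of -8.90 without control s2 and s3. In the libraries of the earlier time points SmedSXL_001355 had log2 fold changes of -5.07 at 6 feedings and -7.27 at 8 (edgeR adjusted p = 0.00102 and 5.03e-05), and it was not tested at 4. Neither SmedSXL_078329 nor SmedSXL_001355 had a match on the asexual assembly.

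The 71 higher contigs had a median log2 fold change of 1.51, or 1.33 without control s2 and s3. With all 8 libraries 67 of them were at least 2-fold higher, 9 at least 8-fold and 3 at least 32-fold. Replicate s2 was the highest knock-down library for 41 of the 71 and replicate 1 the lowest for 52. The same was not counted over all contigs tested, so whether this order is particular to the higher contigs was not tested. The ratio of the highest to the lowest knock-down library had a median of 1.52 over these contigs, with nothing added to the values. Over all contigs tested, with 0.1 CPM added to both values, the median ratio was 1.47 among the knock-down libraries and 3.45 among the 4 control libraries. The number of higher contigs depended on the libraries and the fit. It was 22 without knock-down s2 or without s4, 27 without s3, 35 without knock-down 1, 53 without control s2, 51 without control s3, 76 without control s1 and 2693 without control 1. With libraries paired by name it was 21, against 15 in the same 6 libraries without the pairing.

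Of the higher contigs, 28 met the rule for naming. SmedSXL_054908 (208 bases) stood at 15.2, 171.8, 46.8 and 165.2 CPM in knock-down replicates 1, s2, s3 and s4. In the controls it stood at 0.136, 0.779, 1.03 and 1.07 CPM in replicates 1, s1, s2 and s3, from 3 to 14 counts. The lowest knock-down library was above the highest control, which the rule for naming required. The fitted difference was 7.17 on the log2 scale with a standard error of 0.996 (adjusted p = 0.00188 by edgeR), and 7.86 without control s2 and s3 (edgeR adjusted p = 0.00422). At 8 feedings SmedSXL_054908 was also higher, by 5.45 on the log2 scale (edgeR adjusted p = 0.000661). At 4 feedings its log2 fold change was -2.70 and did not pass the test (edgeR adjusted p = 1.0), and it was not tested at 6.

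SmedSXL_012259 (914 bases) showed the same order of knock-down libraries but at a higher level. Its values were 625.3, 3195, 1383 and 1941 CPM in knock-down replicates 1, s2, s3 and s4 and 20.9, 105.4, 33.1 and 31.3 CPM in control replicates 1, s1, s2 and s3. The group means were 1786 ± 1083 and 47.7 ± 38.9 CPM (SD, n = 4 each), or 5.23 on the log2 scale with a standard error of 0.746 (adjusted p = 0.00209 by edgeR), and 4.87 without control s2 and s3. The log2 fold change of SmedSXL_012259 was -0.79 at 4 feedings, where it was not called (edgeR adjusted p = 1.0), 4.38 at 6 and 3.23 at 8 (edgeR adjusted p = 0.0375 and 0.0139). Neither SmedSXL_054908 nor SmedSXL_012259 had a match on the asexual assembly.

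**Figure D4:**
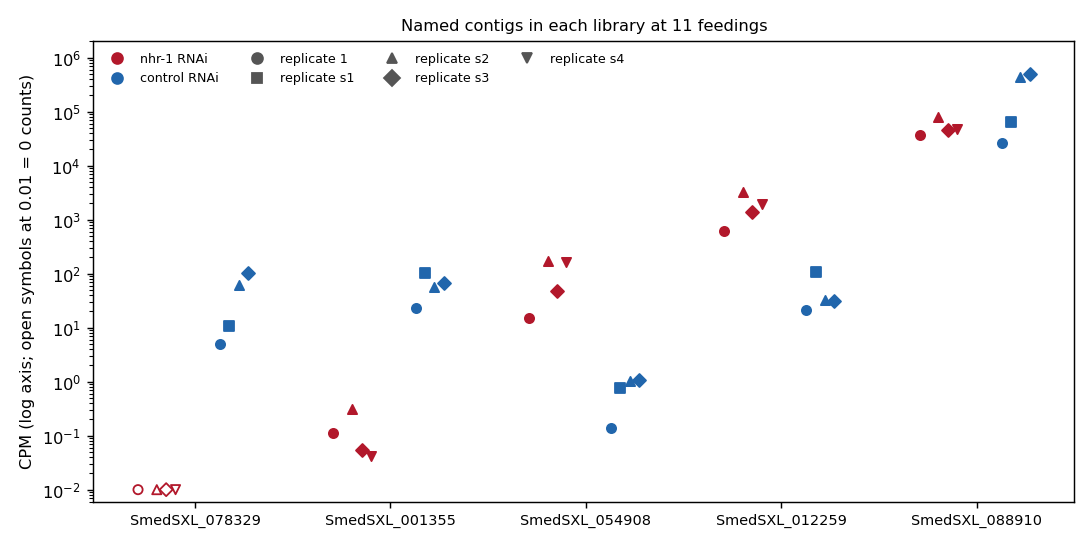
CPM of the 4 contigs named by the rule and of SmedSXL_088910 in each library at 11 feedings (log axis, red nhr-1 RNAi, blue control, symbols by replicate name, open symbols for 0 counts drawn at 0.01). The rule required that the groups not overlap for the 4 named contigs. For SmedSXL_088910 the knock-down lies below control s2 and s3, with replicates 1, s3 and s4 between control 1 and s1 and replicate s2 above both.

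The comparison at 8 feedings was the nearest in time and shares no library with that at 11. The labels do not say whether the animals or cultures were separate. In its own 8 libraries it called 4097 contigs lower (20.3% of 20212) and 626 higher (3.1%). Of the 2681 contigs lower at 11 feedings, 2560 (95.5%) were lower at 8, which is 66.5% of the 3850 contigs lower at 8 that were tested at 11. Of the 71 higher at 11, 50 (70.4%) were higher at 8, which is 8.25% of the 606 higher at 8 and tested at 11. No contig was called in opposite directions at the 2 time points. The part that the spread of the controls at 11 feedings plays in the smaller number of calls there was not tested.

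Most contigs called at 8 feedings had the same direction at 11, in shares that include the contigs also called at 11. Of the 3850 lower ones, 98.8% were below 0 at 11 feedings, and 99.7% without control s2 and s3, where all contigs tested were below 0 in 49.7% and 46.5%. Contigs near 0 counts in the knock-down passed the filter at 11 only if every control fitted held them. Their direction was thus largely fixed in advance, and these shares include them. Their median was -1.99 on the log2 scale at 8 and -2.10 at 11. Without control s2 and s3, where 4036 of the contigs lower at 8 were tested, it was -1.94 at 11. The next shares are of all 4097 contigs lower at 8, whether or not tested at 11. These contigs took 20.5%, 24.6%, 17.3% and 24.3% of the SmedSXL counts other than SmedSXL_088910 in control replicates 1, s1, s2 and s3. In knock-down replicates 1, s2, s3 and s4 they took 4.56%, 4.23%, 5.19% and 5.90%. The groups did not overlap. On this measure control s2 was the lowest control and s3 lay between 1 and s1.

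The 606 contigs higher at 8 feedings had a median log2 fold change of 0.67 at 8 and 0.93 at 11. Without control s2 and s3 the median at 11 was 0.58, over 623 contigs tested, so whether it lay above or below the value at 8 depended on those 2 libraries. With all 8 libraries 95.5% of the 606 were above 0 at 11, against 50.3% of all contigs tested. Any contig near 0 counts in the controls likewise passed the filter only if every knock-down library held it. The next shares are of all 626 contigs higher at 8, whether or not tested at 11. They took 7.54%, 12.04%, 8.85% and 10.4% of the same counts in knock-down replicates 1, s2, s3 and s4. In control replicates 1, s1, s2 and s3 they took 4.22%, 3.16%, 2.62% and 2.05%. The groups did not overlap here either. A test of the difference between the RNAi effects at 11 and 8 feedings, in a fit of all 31 libraries, called 0 of 23870 contigs by edgeR's quasi-likelihood test, with 2120 at an unadjusted p under 0.05. Without control s2 and s3 it also called 0, with 138 at an unadjusted p under 0.05, and no other tool was run on this difference.

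**Figure D5:**
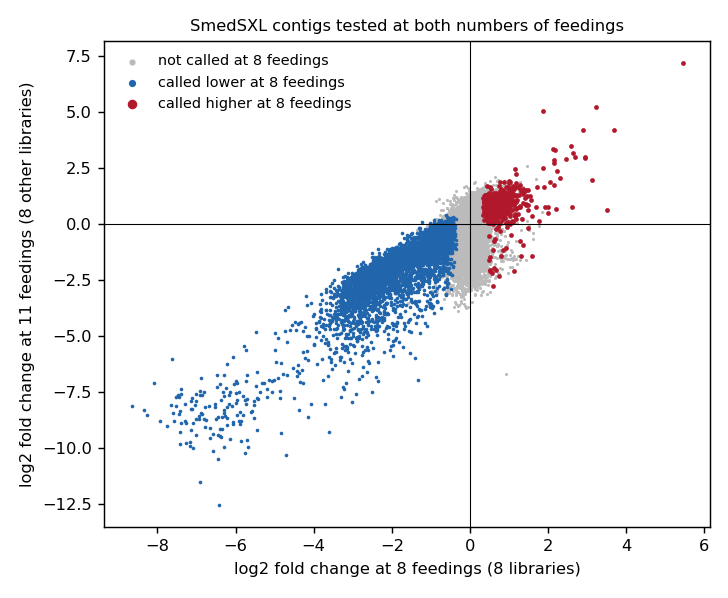
Log2 fold change, nhr-1 RNAi against control, of SmedSXL contigs at 8 feedings (x axis) and 11 feedings (y axis), each from its own 8 libraries. Points are contigs, coloured by their call at 8 feedings (blue lower, red higher, grey not called). Of the contigs lower at 8 feedings and tested at 11, 98.8% lie below 0 at 11, a share to which the filter on low counts contributes. A separate cloud of strongly lowered contigs lies at the lower left.

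The contigs lower at 11 feedings were also followed back to the earlier libraries. Their log2 fold changes had a median of -0.36 at 4 feedings, -2.08 at 6 and -2.38 at 8, where the medians of all contigs tested were 0.00, 0.09 and 0.00. At 4 feedings 93.7% of them were below 0, against 49.6% of all contigs tested, but 1 passed the test there, where 0.00549% of all contigs tested were lower and 0% higher. At 6 feedings 2109 of them passed it, where 13.6% of all were lower and 0.162% higher, and at 8 feedings 2560. The contigs at least 32-fold lower at 11 had medians of -0.92 at 4 feedings, -3.29 at 6 and -5.20 at 8. The 71 higher contigs had medians of 0.15, 0.79 and 0.89, with 0, 17 and 50 of them passing the test.

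Each group has 1 library named 1 and 3 named with s, a difference that the labels leave unexplained. The libraries named with s alone called 3574 contigs lower and 975 higher. In the libraries named 1, with 1 per group and no test, the knock-down was below the control for 2932 of 3517 of those lower contigs (83.4%), where it was below for 45.1% of all. For contigs at least 8-fold lower in the s libraries the share was 94.2%. For the higher contigs the knock-down was above the control in 845 of 974 (86.8%), where 54.9% of all contigs were above.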

How the data were processed

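The authors deposited 1 table of read counts, and these raw counts were used as deposited. Reads were mapped with Bowtie2, per the submitters' processing notes. How reads were counted, with what regard to strand, and the Bowtie2 version are not given in the sources. Each row holds the identifier and length of a sequence with its count in 32 libraries, per the file headers. A row that names no sequence held 0 counts, and 0 columns were left unused. Titles gave the groups and replicate names.

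The test was edgeR 4.0.16 (R 4.3.3) quasi-likelihood on the 8 libraries at 11 feedings, with TMM, filterByExpr (minimum count 10, minimum total count 15) and no covariate, fitted on all sequences of the table, after which SmedSXL contigs were counted. Only these 8 libraries entered the fit because its controls are widely spread, so that a spread shared with other groups could understate the error. SE is the log2 fold change over the root of F. The other numbers of feedings were fitted in the same way on their own libraries. The script was tested on simulated counts. DESeq2 1.42.0 and limma 3.58.1 were alternatives.

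Total counts per library limit the precision of rare contigs. A count of 0 was taken to allow up to 3 counts over a group, which covers counting error only.

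Contigs were named from those called with and without control s2 and s3, with no overlap between groups and a mean of at least 20 CPM, ranked by the smaller log2 fold change, 2 per direction, passing over any with r over 0.99 to one already named. SmedSXL_088910 is named besides. The members, lists and tests were chosen with earlier results of these data known, and the match rule and the 32-fold limit after seeing the values.

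Libraries of the same name were taken as paired for an alternative, because their deviations from the group means correlated positively, at 0.486 (name 1), 0.407 (s2) and 0.174 (s3). The names did not single out the pairs, since knock-down s2 correlated at 0.401 with control s3, knock-down s3 at 0.180 with control s2 and knock-down 1 at 0.243 with control s1. The descriptions name the controls at 11 feedings differently from the titles, so this pairing holds for the titles only.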

Additional observations from a re-analysis of the deposited data

Results flagged for a closer look

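Of 16 sets of 4 libraries examined for a library far from the rest, 1 was set apart, where chance sets apart about 1 in 20. Control replicate s1 held SmedSXL_012259 at 105.4 CPM, and its distance to the next control was 0.856 of the range of the 4 controls. The others held 20.9 to 33.1 CPM. All 4 knock-down libraries lay above s1, at 625.3 CPM or more.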

How the results depend on the processing

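The alternatives covered normalization, filters, tools, the libraries fitted and the pairing by name, and in each of them the lower contigs outnumbered the higher ones. Against 2752 calls (2681 lower, 71 higher, 1012 at least 8-fold lower), total counts alone gave 860 (842, 18, 476), with the median of all contigs shifted to 0.52. No filter gave 5192 (4916, 276, 1752), and a minimum count of 50 gave 1396 (1345, 51, 529), where other numbers of contigs were tested. The fit of 31 libraries gave 7489 (5894 lower, 1595 higher), DESeq2 4894 (4182, 712) and limma voom with sample weights 4736 (3378, 1358), with 526 at least 8-fold lower. The libraries named with s gave 4549 (3574, 975). Higher contigs numbered 121 with DESeq2 size factors in edgeR, 114 with SmedSXL contigs alone, 188 where names with s had a term, 230 without control s2 and s3 (608 at least 8-fold lower) and 122 without them in the fit of 31 libraries. With the replicate block, on the 6 libraries paired by name, 2217 contigs were called, 2196 lower and 21 higher, and without the block the same libraries gave 15 higher. The block changed no call of a named contig.

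Leaving out 1 library gave 1930 to 8214 calls, 1908 to 5521 lower, 22 to 2693 higher and 751 to 1305 at least 8-fold lower, the highest of the first 3 without control 1. The difference in the share of SmedSXL_088910 ran from -22.1 to -8.87 percentage points when 1 library was left out and turned to 2.31 without control s2 and s3. The median at 11 feedings of contigs lower at 8 was -1.53 with total counts alone and -1.72 with limma voom, against -2.10. The lower contigs with an asexual match were 14.6% within 2% and 25.1% within 10%, against 46.6% and 66.4% of all contigs tested. Within 10%, 10.3% of the lower contigs and 21.4% of all contigs tested also met another SmedSXL contig. Within 25% the shares were 89.7% and 95.7%, but 93.5% then also met another SmedSXL contig. The match alternatives, the 6 libraries without the block and the share without control s2 and s3 were chosen after seeing the data. The 4 named contigs were called in the same direction in all alternatives. The cause of these shifts was not tested.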
